A study of Rattus norvegicus with 12 samples.

Results

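Isthmin-1, encoded by Ism1, is a secreted inhibitor of angiogenesis built around a thrombospondin type 1 repeat, a short cysteine-rich module that binds glycosaminoglycans and cell surface receptors. Ism1 was set beside 9 related genes: its paralogue Ism2, the thrombospondins Thbs2, Thbs3 and Thbs4, the spondins Spon1 and Spon2, and Thsd1, Thsd4 and Thsd7a, which encode proteins with thrombospondin repeats. The 10 genes were chosen by name, with earlier results of these data known. Of these, 8 had a probeset that carried their symbol alone, out of 18166 genes measured. Ism2 and Thbs3 were not analysed here. Each of the 8 genes had 1 probeset, so a change confined to a transcript form outside it would not be seen.

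The kidneys came from male Sprague Dawley rats, with 3 rats and 3 arrays in every group. The W0, W1 and W5 rats had received L-NAME, an inhibitor of nitric oxide synthesis that raises blood pressure and injures small renal vessels, at 15 mg/kg per day with 6 g/L NaCl in the drinking water, until urinary protein passed 1 g per mmol of creatinine. W0 kidneys were taken at this peak of disease, W1 kidneys 1 week after L-NAME was stopped and W5 kidneys 5 weeks after. CTL rats were age-matched and were not given L-NAME, and whether they received the salt is not stated in the sources used here. RNA from a piece of each kidney was hybridised on an Affymetrix Rat Gene array, so glomeruli, vessels and tubules were measured together.

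Levels are log2 values after RMA, a normalisation that reduces differences between arrays, and a log2 difference of 1 is a 2-fold change. Groups were compared with limma, which fits all genes at once and steadies the variance of each from the others. Below, called means a p under 0.05 after Benjamini-Hochberg adjustment over all 18166 genes. The array medians lay between 5.75 and 5.92. Of the tubular genes, Slc34a1 lay between 10.88 and 11.94 and Umod between 10.68 and 11.71 over the arrays, and Nphs1, which encodes nephrin of podocytes, lay between 6.41 and 6.82. Replicate 1 of W0 (-31.74) and replicate 1 of W1 (20.42) stood apart on the second principal component, which held 14.7% of the variance, and results that rest on them are given with and without them. W5 replicate 1 had the lowest mean level over 12 proximal tubule markers (9.55, against 10.3 and 10.37 in the other W5 kidneys).

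Proteins of this family sit in the matrix or on cell membranes and act on growth of vessels, on collagen assembly and on cell adhesion. Thrombospondin-2, like thrombospondin-1, carries type 1 repeats and inhibits angiogenesis, whereas thrombospondin-3 and -4 belong to the pentameric branch that lacks them. Isthmin-1 differs from the others by its AMOP domain, which Ism2, Muc4 and Susd2 also encode. In the kidney the family is known best from THSD7A, a podocyte membrane protein that is an autoantigen in human membranous nephropathy.

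No difference between group means of these genes reached 2-fold through disease and recovery. Over all arrays, however, 90.6% of all genes had a smaller SD than Ism1 and 84.5% a smaller SD than Spon1. Of the 8, 0 were called over the 4 groups (moderated F statistic of limma, adjusted p under 0.05), against 6.72% of all genes, and 3 had an unadjusted p under 0.05, against 20.2% of all genes. These were Thbs2 (adjusted p = 0.0873), Spon1 (adjusted p = 0.196) and Ism1 (adjusted p = 0.21). With ordinary F statistics compared over all 15400 partitions of the arrays, exact permutation gave p = 0.00396 for Thbs2, 0.104 for Spon1 and 0.117 for Ism1, without adjustment for the number of genes examined. Without the 2 arrays that stood apart only Thbs2 had an unadjusted p under 0.05, 1 of the 8, and the adjusted p was 0.138 for Thbs2, 0.468 for Spon1 and 0.421 for Ism1. Between groups lay 75.0% of the variance of Thbs2, 53.7% of that of Spon1, 50.5% of that of Ism1 and 6.5% of that of Spon2.

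**Figure D1:**
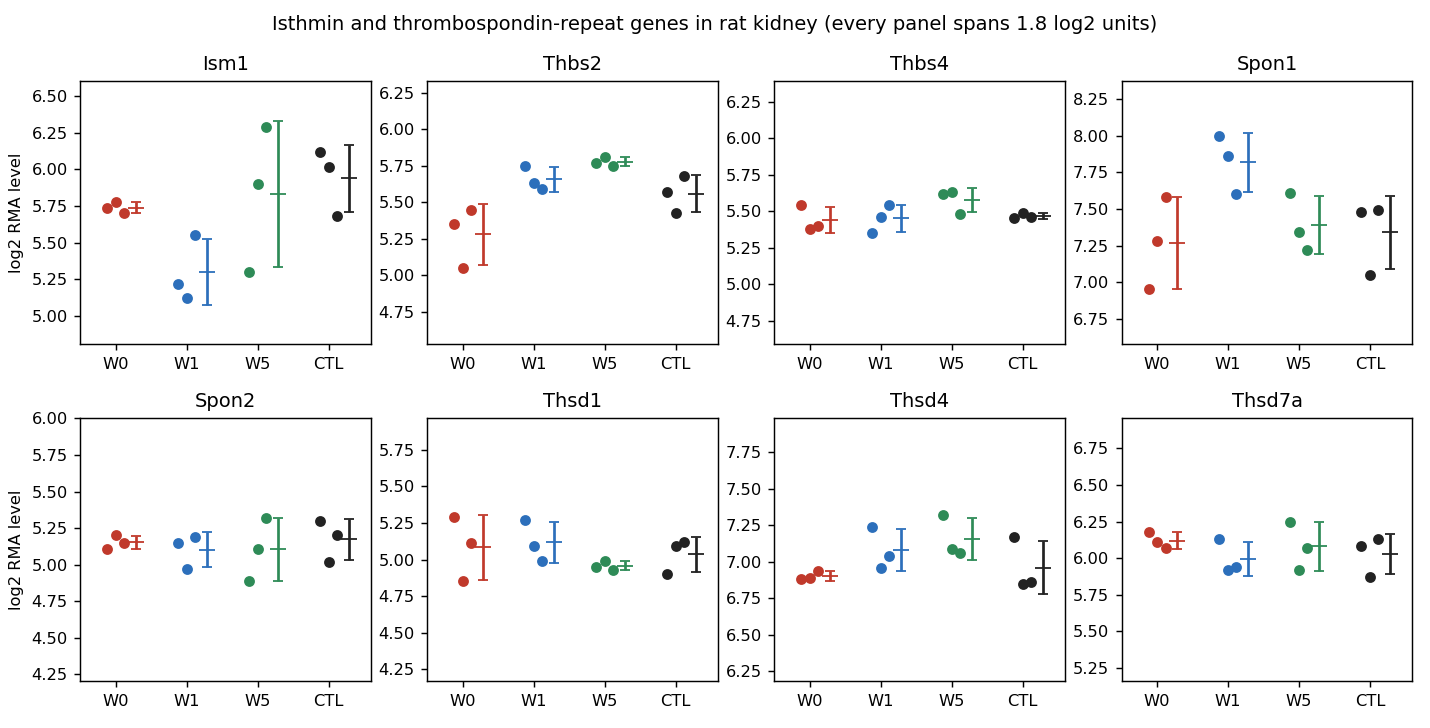
Log2 RMA level (y axis) of the 8 measured genes in the W0, W1, W5 and CTL groups (x axis); each point is the kidney of 1 rat, and the dash with bars is the mean ± SD of 3 rats. By group mean Thbs2 was lowest in W0, and Ism1 lowest and Spon1 highest in W1.

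Thbs2, which encodes an anti-angiogenic matrix protein that also shapes collagen fibrils, had the highest F statistic of the 8 genes. Its mean was lowest at the peak of disease and highest after 5 weeks of recovery. Its log2 levels were 5.35, 5.05 and 5.45 in W0, 5.75, 5.63 and 5.59 in W1, 5.77, 5.81 and 5.75 in W5, and 5.57, 5.43 and 5.68 in CTL. Every W1 and W5 kidney thus had more Thbs2 than every W0 kidney, and the W5 kidneys were close together (SD 0.0286, n = 3).

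In W5 against W0 Thbs2 rose by 0.50 on the log2 scale (1.41-fold, 95% confidence interval 0.23 to 0.76, limma adjusted p = 0.0323). It was the only call among the 8 genes in 6 comparisons, and in this comparison 5.04% of all genes were called, with 1.88% of all genes called higher. At an unadjusted p under 0.05 it was again 1 of the 8, where 17.7% of all genes had such a p. The exact permutation p was 0.1, the smallest that 3 against 3 arrays can give. The call was lost, with adjusted p = 0.118, without W0 replicate 2, which had the lowest level, and the difference was then 0.38. It was lost too without W5 replicate 1 (adjusted p = 0.0822), replicate 2 (0.124) or replicate 3 (0.0711) and with only these groups in the fit (0.0889). Without the pair of arrays that stood apart it was kept (0.53, adjusted p = 0.042).

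The other differences of Thbs2 did not pass. In W1 against W0 it was 0.38 (interval 0.11 to 0.64, adjusted p = 0.233), with no overlap between the groups. In W0 against CTL it was -0.28 (interval -0.55 to -0.02, adjusted p = 0.19), and W0 replicate 3 (5.45) lay above the lowest CTL kidney (5.43). W5 kidneys all lay above the CTL kidneys, by 0.22 on average (interval -0.05 to 0.48, adjusted p = 0.719). In the order of the means, W5, W1, CTL and W0, each neighbour overlapped the next.

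Markers of fibroblasts, mesangial and smooth muscle cells, the cells known to make much of the matrix, are given beside Thbs2. The mean log2 level over 12 such markers was 6.51 to 6.92 in W0, 6.89 to 7.0 in W1, 6.56 to 6.60 in W5 and 6.09 to 6.34 in CTL. In W0 against CTL 7 of the 12 were called higher and 0 lower, where 4.99% of all genes were called higher. Among the 7 were the fibrillar collagen Col3a1 (1.29, limma adjusted p = 0.000161) and Dcn, which encodes the proteoglycan decorin (0.91, adjusted p = 0.0128). The 12 ranged from -0.25 to 1.29 (median 0.55). Myh11 (6.47 in W0 against 6.72 in CTL) and Itga8 (5.6 against 5.71) had lower means in W0, without a call. The part of cell composition in the levels of Thbs2 was not tested. In whole kidney RNA, fewer cells of a type and less RNA per cell cannot be told apart.

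Spon1, which encodes the matrix protein F-spondin, was highest 1 week after L-NAME was stopped. Its log2 levels were 6.95, 7.28 and 7.58 in W0, 8.0, 7.86 and 7.60 in W1, 7.61, 7.34 and 7.22 in W5, and 7.48, 7.05 and 7.49 in CTL. All W1 kidneys lay above all W0 and all CTL kidneys, although the lowest W1 kidney (7.60) was close to the highest W0 kidney (7.58) and lay just below W5 replicate 1 (7.61). The mean in W1 was 7.82 ± 0.2, against 7.34 ± 0.249 in CTL (SD, n = 3 each).

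None of the differences of Spon1 passed. It was 0.48 in W1 against CTL (interval 0.10 to 0.86, limma adjusted p = 0.187), 0.55 in W1 against W0 (interval 0.17 to 0.93, adjusted p = 0.23) and -0.43 in W5 against W1 (interval -0.81 to -0.05, adjusted p = 0.366). The W1 against W0 difference shrank to 0.30 (adjusted p = 0.82) without the 2 arrays that stood apart, W0 replicate 1 being the lowest and W1 replicate 1 the highest in Spon1. Without CTL replicate 2, the lowest CTL kidney, the W1 against CTL difference was 0.34. Among the fibroblast and smooth muscle markers above, W1 against CTL had 4 of 12 called higher (2.23% of all genes) and 9 of 12 without overlap (22.1% of all genes). Their part in the Spon1 level was not tested.

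Ism1 had its lowest group mean in W1. Its log2 levels were 5.74, 5.78 and 5.70 in W0, 5.22, 5.12 and 5.55 in W1, 5.3, 5.90 and 6.29 in W5, and 6.12, 6.02 and 5.68 in CTL. The W1 kidneys lay below every W0 and every CTL kidney, and in the order of the means, CTL, W5, W0 and W1, only the step from W0 to W1 was free of overlap. The W0 rats were nearly identical in Ism1 (SD 0.039), whereas the W5 rats were spread widely (SD 0.497). In W0 against CTL the difference was -0.20 (interval -0.65 to 0.24, limma adjusted p = 0.641). The step in W1 against W0 was -0.44 (interval -0.88 to 0.0, limma adjusted p = 0.448). The difference in W1 against CTL was -0.64 (interval -1.09 to -0.20, limma adjusted p = 0.121, exact permutation p = 0.1). With single arrays left out it ran from -0.77 to -0.55, and its adjusted p from 0.0456 without W5 replicate 1 to 0.322 without CTL replicate 1. The F statistic of Ism1 likewise passed without W5 replicate 1 (adjusted p = 0.0385), while its adjusted p was 0.444 without W1 replicate 2 and 0.398 without W1 replicate 1. In W5 against W1 the difference was 0.53 (interval 0.09 to 0.97, adjusted p = 0.336), with 0.30 without W5 replicate 3 and 0.79 without W5 replicate 1. Without the 2 arrays that stood apart Ism1 differed by -0.61 in W1 against CTL (adjusted p = 0.256), by -0.41 in W1 against W0 (0.838) and by 0.49 in W5 against W1 (0.515).

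W5 replicate 1 had an Ism1 level within the W1 range, and it was also the array with the lowest mean of proximal tubule markers. Its log2 levels were 6.54 for Slc5a12, a lactate transporter, and 6.9 for Slc5a2, the glucose transporter SGLT2, where the other 11 arrays had 8.2 to 9.39 and 7.67 to 9.11. Slc7a7 (7.57) was lowest in this array too. The low mean did not hold for every marker. Slc34a1 (11.67), Lrp2 (11.02), Miox (11.78) and Slc22a6 (10.38) were higher in W5 replicate 1 than in every W0 kidney. Over the 12 markers the mean level was 9.71 to 9.99 in W0, 9.98 to 10.34 in W1, 9.55 to 10.37 in W5 and 10.21 to 10.44 in CTL. In W0 against CTL 0 of the 12 were called higher and 6 lower, where 802 of the 18166 genes were called lower. In W1 against CTL 0 were called higher and 2 lower, where 143 of the 18166 genes were called lower. In W5 against W1 0 of the 12 were called, where 0.286% of all genes were. At an unadjusted limma p under 0.05 there were 3 of them, where 11.4% of all genes had such a p. Their part in the Ism1 level was not tested.

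Within the same array the Spon1 level minus the Ism1 level was 2.77, 2.74 and 2.05 in W1, against 1.36, 1.03 and 1.8 in CTL. It was 1.22, 1.5 and 1.88 in W0 and 2.31, 1.44 and 0.93 in W5. Since each probeset has its own brightness, the size of this difference has no meaning, but its values can be set side by side between arrays. It was greater in each W1 kidney than in each W0 and CTL kidney, and W5 replicate 1 (2.31) lay within the W1 range. The pair was chosen after the levels had been seen, so no test is given.

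Podocyte markers are given beside Ism1 and Thsd7a. The mean log2 level over 9 podocyte markers was 7.69 to 7.86 in W0, 7.57 to 7.73 in W1, 7.53 to 7.64 in W5 and 7.54 to 7.64 in CTL. In W1 against CTL 0 of the 9 were called (median -0.05), where 3.02% of all genes were. At an unadjusted limma p under 0.05 there were 3 of them, where 16.0% of all genes had such a p. In W0 against CTL 3 were called higher and 0 lower, where 4.99% of all genes were called higher. Among the 3 were Plce1, a phospholipase (0.57, limma adjusted p = 0.0388), and Kirrel1, which encodes a slit diaphragm protein (0.50, adjusted p = 0.0251). The median of the 9 was only 0.02 (range -0.18 to 0.57). Without a call, the W0 mean was below the CTL mean for Nphs1 (6.51 against 6.65), Podxl (8.6 against 8.76) and Clic5 (8.55 against 8.73). Their part in the levels of Ism1 and Thsd7a was not tested.

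None of the remaining 5 genes had an unadjusted p under 0.05 in any comparison. At the peak of disease 0 of the 8 genes were called against CTL, where 9.4% of all genes were, and in 0 of the 8 were W0 and CTL free of overlap, where 26.5% of all genes were. At an unadjusted p under 0.05 there was 1 (Thbs2), where 22.6% of all genes had such a p. The 95% confidence intervals of the 8 genes ran from -0.65 to 0.35 in W0 against CTL, from -1.09 to 0.86 in W1 against CTL and from -0.56 to 0.48 in W5 against CTL. For each gene other than Ism1 in W1, a 2-fold difference from CTL in either direction thus lay outside the interval.

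Thsd7a, the podocyte antigen, had log2 levels of 6.18, 6.11 and 6.07 in W0, 6.13, 5.92 and 5.94 in W1, 6.25, 5.92 and 6.07 in W5, and 6.08, 5.87 and 6.13 in CTL. The groups overlapped throughout, and the difference in W0 against CTL was 0.09 (interval -0.16 to 0.35, adjusted p = 0.727).

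Thsd1, which encodes a membrane protein of endothelial cells, had 5.29, 4.85 and 5.11 in W0, 5.27, 5.09 and 4.99 in W1, 4.95, 4.99 and 4.93 in W5, and 4.90, 5.09 and 5.12 in CTL. Its W0 against CTL difference was 0.04 (interval -0.23 to 0.32, adjusted p = 0.896) and turned to -0.06 without W0 replicate 1. Among 11 endothelial markers 2 were called lower and 0 higher in that comparison, where 802 of the 18166 genes were called lower. The 2 were Vwf, the von Willebrand factor (-0.68, limma adjusted p = 0.0155), and Ehd3, which is enriched in glomerular endothelium (-0.53, adjusted p = 0.0231). The markers did not move together (median -0.12, range -0.68 to 0.44). Cdh5 was not called but was higher in every W0 kidney (7.48 to 8.05) than in every CTL kidney (7.23 to 7.32). The mean of Esam was 7.1 in W0 against 6.72 in CTL.

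Thsd4, also known as ADAMTSL6, encodes a matrix protein that binds fibrillin-1 microfibrils. Its log2 levels were 6.88, 6.89 and 6.94 in W0, 7.24, 6.96 and 7.04 in W1, 7.32, 7.09 and 7.06 in W5, and 7.17, 6.85 and 6.86 in CTL. As with Thbs2, all W1 and W5 kidneys lay above all W0 kidneys. The difference in W5 against W0 was 0.26 (interval -0.01 to 0.53, adjusted p = 0.311), and in W0 against CTL it was -0.06 (adjusted p = 0.854). Groups without overlap were found for 4 of the 8 genes in W1 against W0 (Thbs2, Spon1 and Thsd4 higher, Ism1 lower), where 14.0% of all genes were without overlap, 8.42% higher and 5.54% lower, and for 2 of the 8 in W5 against W0, where 23.0% were. There were 2 such genes in W1 against CTL (22.1% of all genes), 1 in W5 against CTL (14.4%) and 1 in W5 against W1 (17.7%, Thsd1 lower).

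Spon2, which encodes mindin, a matrix protein of innate immunity, had levels of 5.11, 5.2 and 5.15 in W0, 5.15, 4.97 and 5.19 in W1, 4.89, 5.11 and 5.32 in W5, and 5.3, 5.02 and 5.2 in CTL. Its difference in W0 against CTL was -0.02 (interval -0.30 to 0.25, limma adjusted p = 0.951). In the same comparison 8 of 14 macrophage markers were called higher and 0 lower, where 4.99% of all genes were called higher. Among the 8 were Mrc1, the mannose receptor (1.25, adjusted p = 0.000381), and Cd14 (1.24, adjusted p = 0.000341). The 14 ranged from -0.35 to 1.25. Adgre1 (5.61 in W0 against 5.96 in CTL) and Aif1 (6.77 against 6.88) had lower means in W0, without a call. Thbs4, known from tendon, heart and the nervous system, had 5.54, 5.38 and 5.40 in W0, 5.35, 5.46 and 5.54 in W1, 5.62, 5.63 and 5.48 in W5, and 5.45, 5.49 and 5.46 in CTL. Its difference in W0 against CTL was -0.03 (interval -0.26 to 0.20, adjusted p = 0.918). The SD of Thbs4 over the 12 arrays was 0.089, smaller than that of all but 2.1% of the 18166 genes.

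**Figure D2:**
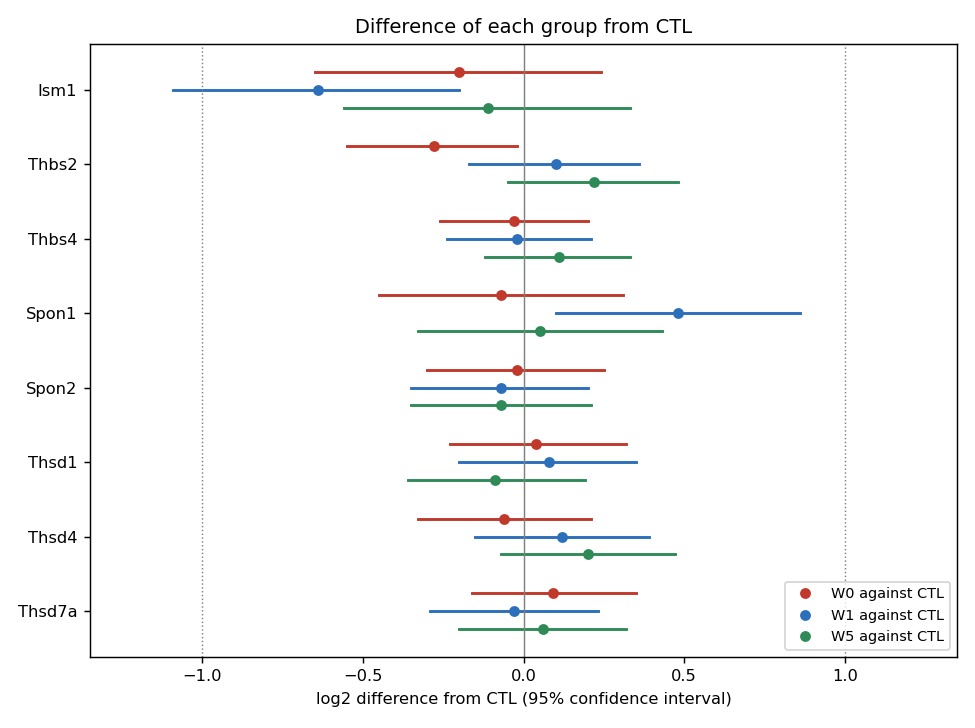
Log2 difference of W0, W1 and W5 from CTL (x axis) for the 8 genes (y axis), with 95% confidence intervals from limma as lines; dotted lines mark a 2-fold change. All intervals lie between the dotted lines except that of Ism1 in W1 (-1.09 to -0.20), and none of these differences passed after adjustment.

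Over the recovery 0 of the 8 genes were called in W1 against CTL (3.02% of all genes), W5 against CTL (0.0%), W1 against W0 (0.528%) and W5 against W1 (0.286%). At an unadjusted limma p under 0.05 there were 2, 0, 2 and 2 of them, where 16.0%, 7.34%, 11.2% and 11.4% of all genes had such a p.

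Calls were found among other genes with thrombospondin repeats, in lists that were also chosen with earlier results of these data known. The largest family of them is that of the ADAMTS proteases, which cut proteoglycans and procollagens, and of the ADAMTS-like proteins, which have the repeats but no protease. Of 19 measured, 8 rose and 0 fell in W0 against CTL, where 4.99% of all genes were called higher, with a median log2 difference of 0.24 (-0.01 over all genes and -0.04 over the 8 genes above). Adamts1, a protease of versican and aggrecan that is also anti-angiogenic, had log2 levels of 10.11, 10.18 and 10.43 in W0 against 7.91, 7.43 and 7.01 in CTL (difference 2.79, adjusted p = 2.43e-06). Adamtsl4, which binds fibrillin, rose by 1.32, Adamts4 by 1.22, Adamts12 by 1.17, Adamts9 by 0.88 and Adamts5 by 0.82. Adamtsl2 (0.64) and Adamtsl1 (0.56), both ADAMTS-like, rose too. The calls of Adamts1, Adamtsl4, Adamts4, Adamts12 and Adamts9 were kept when any single array was left out, those of Adamts5 and Adamtsl2 were each lost without any of 7 arrays (adjusted p up to 0.158 and 0.123), and that of Adamtsl1 without CTL replicate 3 or W0 replicate 3.

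In W1 against CTL 2 of the 19 were called, Adamts1 (2.23) and Adamts12 (1.16), where 2.23% of all genes were called higher. In W5 against CTL 0 of the 19 were called, where 0.0% of all genes were. At an unadjusted limma p under 0.05 there were 3 of the 19, where 7.34% of all genes had such a p. In W5 against W0, where 3.17% of all genes were called lower, Adamts1 fell by 2.14, Adamts4 by 1.17, Adamtsl4 by 1.06 and Adamts9 by 0.89 (limma adjusted p = 4.15e-05 to 0.00395). In W5 against W1 Adamts1 fell by 1.58 (adjusted p = 0.00488, and 0.0526 without W1 replicate 1). Adamtsl4 fell by 0.74 in W1 against W0 (adjusted p = 0.0445), a call that was lost without any of 10 arrays (adjusted p up to 0.196).

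Among 30 further genes with such repeats 5 rose and 2 fell at W0, where 9.4% of all genes were called in either direction, with a median of 0.02. C7, a component of the membrane attack complex, rose by 1.49 (adjusted p = 0.00101), with levels of 9.47, 9.94 and 10.2 in W0 against 8.06, 8.49 and 8.56 in CTL. Unc5b, a netrin receptor of vessels, rose by 0.79, Ccn2, the connective tissue growth factor, by 0.77, C6 by 0.51 and properdin, Cfp, by 0.48. Cilp, which encodes a cartilage matrix protein, fell by 0.61 and Sema5a, a semaphorin of axon guidance, by 0.58. C7 (1.66), Cfp (0.77) and C6 (0.61) were also higher in W1 than in CTL. In W5 against W0 Unc5b fell by 0.55 and Sema5a rose by 0.52 (adjusted p = 0.0318 and 0.0399). The W0 against CTL calls of C7, Unc5b and Cilp were kept when any single array was left out, while those of Ccn2 (lost for 3 arrays, W0 replicate 1 among them), C6 and Cfp (4 each) and Sema5a (2) were not. The W1 calls of C7 and Cfp were kept and that of C6 was lost for 5 arrays, and the W5 against W0 calls of Unc5b and Sema5a were lost for 5 and 8. Thbs1 and Comp were not analysed here.

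**Figure D3:**
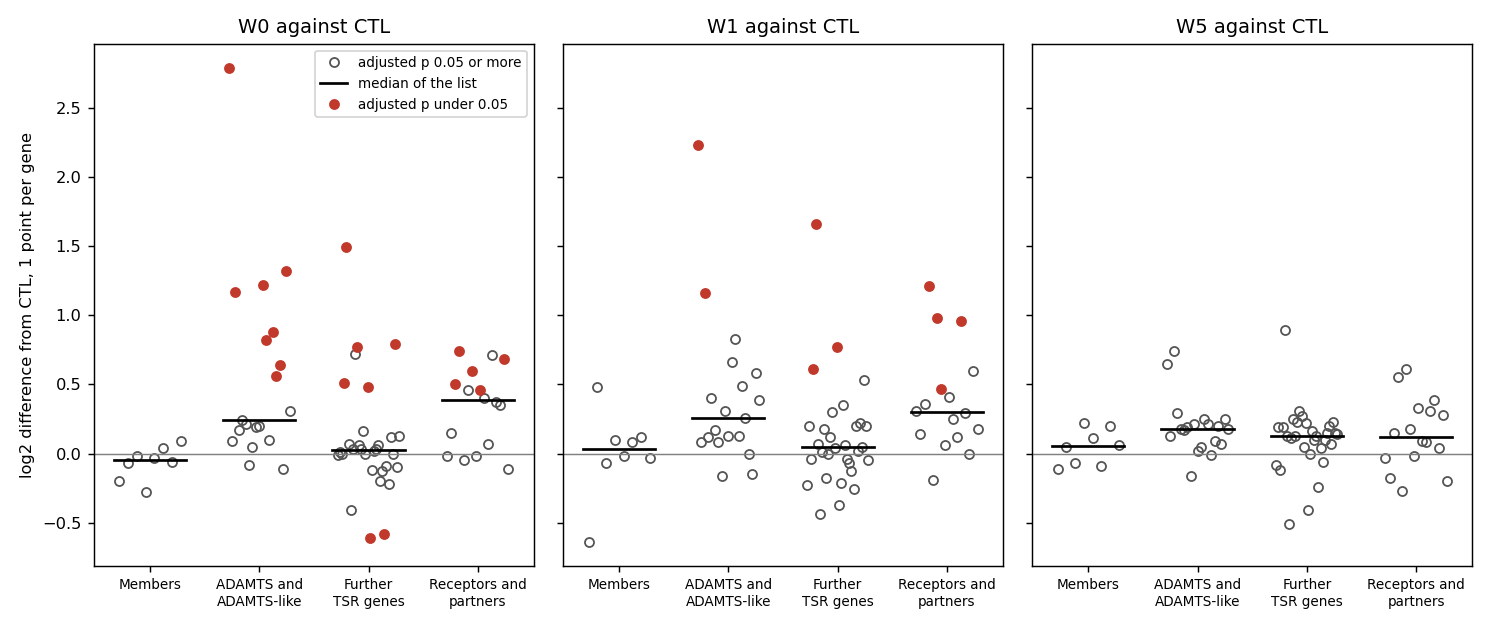
Log2 difference from CTL (y axis) of each measured gene, 1 point per gene, for the 8 genes of the family (Members), 19 ADAMTS and ADAMTS-like genes, 30 further genes with thrombospondin type 1 repeats (TSR) and 16 receptors and partners, in W0, W1 and W5; red points passed at an adjusted p under 0.05 and black lines are medians. None of the 8 members is red, while 8 ADAMTS genes are in W0 and 2 in W1.

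The AMOP domain of isthmin-1 is shared by a mucin and a tumour suppressor, both membrane proteins of epithelia. Muc4 had log2 levels of 6.81, 6.25 and 6.91 in W0, 5.95, 6.00 and 5.88 in W1, 6.89, 6.50 and 6.94 in W5, and 5.89, 5.36 and 5.31 in CTL. It rose by 1.14 in W0 against CTL (adjusted p = 0.00199), and the W1 kidneys lay below all W0 and all W5 kidneys. In W5 against CTL the difference was 1.26 with an adjusted p of 0.0761, and 0 of all genes passed in that comparison (limma), where 1333 had an unadjusted p under 0.05. Ism1 and Muc4 both had their smallest mean among the L-NAME groups in W1, but Muc4 was above CTL in W0 and Ism1 was not. Susd2 had a difference of -0.59 in W0 against CTL (adjusted p = 0.157).

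**Figure D4:**
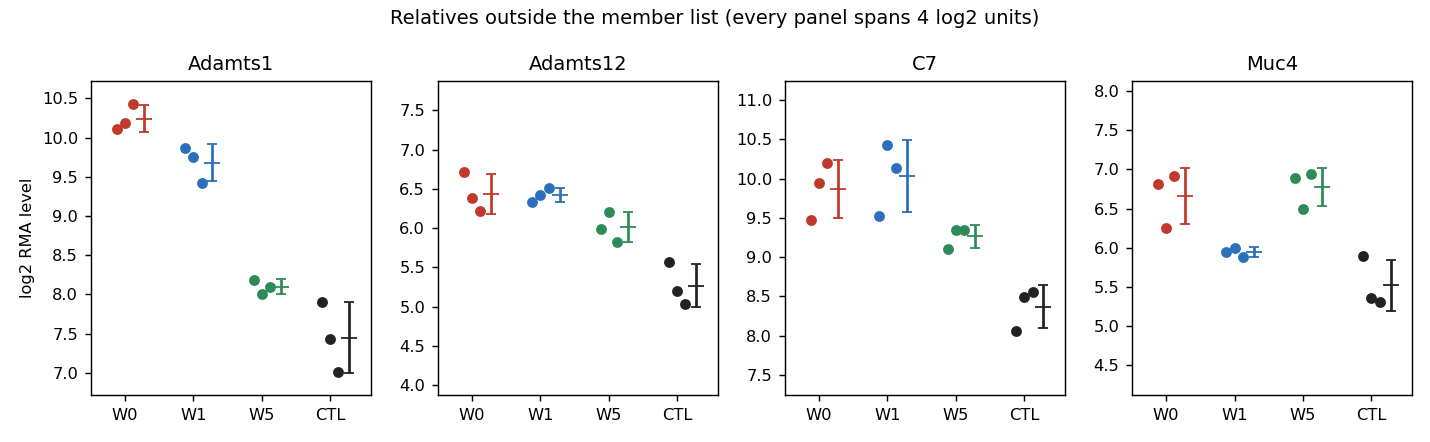
Log2 RMA level (y axis) of 4 relatives outside the list in the W0, W1, W5 and CTL groups (x axis); each point is 1 rat, and the dash with bars is the mean ± SD of 3 rats. Adamts1 was above 10 in all W0 kidneys and below 8 in all CTL kidneys, and Muc4 was lower in the 3 W1 kidneys than in the 3 W0 and the 3 W5 kidneys.

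Receptors and partners of these proteins were examined as well. Of 16 measured, 5 rose and 0 fell in W0 against CTL, where 4.99% of all genes were called higher, and their median was 0.38. Cd47, a receptor of thrombospondin-1, rose by 0.50 (adjusted p = 0.0162), with levels of 9.26, 9.07 and 9.31 in W0 against 8.76, 8.71 and 8.67 in CTL. Fbn1, the fibrillin to which the Thsd4 protein binds, rose by 0.74 in W0 and by 1.21 in W1 (adjusted p = 0.00214 and 0.000279), and Itgb1, an integrin subunit, by 0.60 and 0.47 (adjusted p = 0.00318 and 0.0319). Lrp1, which takes up thrombospondins, rose by 0.46 and Tgfb1, whose latent form is activated by thrombospondin-1, by 0.68. In W1 against CTL Itga4, another integrin subunit, rose by 0.98 and Mmp2, a gelatinase, by 0.96, in W5 against W0 Itgb1 fell by 0.42, and in W5 against W1 Fbn1 fell by 0.66. The calls of Fbn1 in W0 and W1 and of Itgb1 in W0 were kept when any single array was left out. The others were lost for at least some arrays, from 3 (Cd47 and Lrp1) to 10 (Fbn1 in W5 against W1). Hspa5 encodes the isthmin-1 receptor GRP78, and Itgb5 a subunit of the integrin αvβ5 that also binds isthmin-1. Neither was called in W0 against CTL, with group means of 10.26 against 10.31 for Hspa5 and 8.26 against 8.28 for Itgb5. In W1, where Ism1 was lowest, Hspa5 differed from CTL by -0.19 (interval -0.58 to 0.20, limma adjusted p = 0.681). Itgb5 differed by 0.06 (interval -0.20 to 0.31, adjusted p = 0.866).

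The genes whose profile over the 12 arrays was most like that of each family member were picked by Pearson r among 18158 other genes, as a description. The r values are the highest of many, and all points share the 4 groups. For Thbs2 these were Tex47 (r = 0.879) and Antxr1, an anthrax toxin receptor that binds collagen (0.867). Spon1 was followed by Sytl2, of vesicle transport, and Calcrl, the calcitonin receptor-like receptor of endothelium (both 0.931), and Ism1 by Pbld1 (0.892) and Myh15, a myosin (0.871). Around the group means r was 0.724 and 0.57 for the genes beside Thbs2, 0.952 and 0.873 for those beside Spon1 and 0.828 and 0.953 for those beside Ism1. The most like Thsd4 were Mir10a (0.951) and Defb22 (0.901), the most like Thsd7a Gfpt1 (0.907) and Vom1r94 (0.904), and the most like Thsd1 Or5h25d (0.914) and Ppp1r3b (0.886). For Thbs4 they were Cep152 (0.906) and Lgsn (0.9), and for Spon2 Akap1 (0.917) and Aarsd1 (0.866).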

How the data were processed

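Kidney RNA of 12 rats was measured on Affymetrix arrays. The log2 values that the authors deposited had been through RMA, and they were not transformed again. The table covers 20944 probesets, with values from 1.5244 to 12.885. Scan dates and batches are not given in the sources used here. By the platform annotation, 18510 probesets carry 1 gene symbol, 575 several and 1859 none. Those with 1 symbol were kept, and the probeset of highest mean stood for a gene (290 genes had several), which left 18166 genes.

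All 4 groups were fitted with limma 3.58.1 in R 4.3.3, with moderated variances and no trend (total degrees of freedom 13.84). This gave 48 differences (8 genes, 6 comparisons). Exact permutation tests were two-sided for differences. Genes of the lists were named when called, up to 6 per list and comparison and up to 2 for cell types, and for each family member the 2 genes of highest r were named. Adamtsl1, Adamtsl2 and, in W0, Cfp were named beyond this rule, after their values were seen. The genes and lists were chosen with earlier results of these data known. Precision is limited by 3 rats per group. Alternatives covered scaling, variance model, array weights, filter, probeset choice, a replicate block and leaving out arrays. The fit was checked on simulated arrays before use. Python 3.11.15 with numpy 2.4.6, pandas 2.3.3 and matplotlib 3.10.9 was used for preparation and figures.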

Additional observations from a re-analysis of the deposited data

How the results depend on the processing

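The call of Thbs2 in W5 against W0 was kept under every scaling, variance model, filter and probeset choice tried, with array weights and with the replicate block, but 0 of the 8 genes were called with only the 2 groups compared in the fit, and 0 to 1 with single arrays left out. Over the 4 groups 0 to 1 passed with single arrays left out, and 1 (Thbs2, adjusted p = 0.0368) with array weights. In W1 against CTL 0 to 1 passed (Ism1) with single arrays left out. In the other comparisons 0 of the 8 were called in all settings run. Small differences in W0 against CTL changed sign with single arrays left out: Spon1 (-0.22 to 0.09), Spon2 (-0.10 to 0.04), Thbs4 (-0.08 to 0.00), Thsd1 (-0.06 to 0.16) and Thsd4 (-0.11 to 0.05). Without W0 replicate 1 and W1 replicate 1 together, an alternative chosen after seeing the data, Spon1 was 0.09 and Thsd1 -0.06, and 58 genes were called in W1 against W0.

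Counts over all genes moved more. With array weights they were 832 in W1 against CTL (548 in the main analysis), 2 in W5 against CTL (0), 214 in W1 against W0 (96), 1662 in W5 against W0 (916), 665 in W5 against W1 (52) and 1951 over the 4 groups (1221). With only the compared groups in the fit they were 19 in W1 against W0, 537 in W5 against W0 and 80 in W5 against W1. In W5 against W1 the count was 30 with arrays centred on their medians, 31 with quantile normalization repeated, 82 with a variance trend and 79 without genes of mean level under 4, and the last pair of settings gave 1 and 1 in W5 against CTL. With single arrays left out the counts ran from 1070 to 1789 in W0 against CTL (1708), 165 to 745 in W1 against CTL, 0 to 1 in W5 against CTL, 22 to 169 in W1 against W0, 407 to 982 in W5 against W0, 3 to 152 in W5 against W1 and 793 to 1153 over the 4 groups. The W0 against CTL count fell to 1070 without CTL replicate 1 and to 1137 without CTL replicate 2, the W5 against W0 count to 407 without W5 replicate 2, and the count over the 4 groups to 793 without CTL replicate 1. The causes were not tested.

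The labels do not say that a replicate number marks anything shared. Deviations from the group means correlated by -0.036 to 0.172 (median 0.057) over 18 pairs of arrays with the same number and by -0.214 to 0.19 (median -0.032) over 36 other pairs. Of the 18, 7 were over 0.1, 5 of them among the 6 pairs of replicate 1, and 7 of the 12 arrays correlated best with one of their own number. Deviations within a group cancel out, so the values of the same-number and the other pairs are not independent. What lies behind the correlations among replicate 1 arrays was not tested. As the labels name nothing shared, the rats were not treated as paired in the main fit. With the number as a replicate block 1860 genes were called in W0 against CTL, 563 in W1 against CTL, 970 in W5 against W0 and 1312 over the 4 groups, and Thbs2 kept its call (adjusted p = 0.0322). The block took away the calls of Adamtsl4 in W1 against W0, Itgb1 in W5 against W0 and Fbn1 in W5 against W1. With arrays centred on their medians the calls of Adamtsl2 and C6 in W0 against CTL, C6 in W1 against CTL and Fbn1 in W5 against W1 were lost. Arrays scaled otherwise moved the median of all genes by less than 0.1.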
